A study of Mus musculus with 8 samples.

Results

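The circadian clock genes described here are the 10 transcripts Arntl, Clock, Per1, Per2, Per3, Cry1, Cry2, Nr1d1, Nr1d2 and Dbp, chosen by gene name from the 54139 genes of the deposited tables. All 10 were in the tables, all had counts in every library, and all passed the filter on low counts that left 14701 genes for testing. They were measured by RNA sequencing of mouse intestinal epithelial cells in 4 cKO libraries, with the genotype Rictor Flox; Villin-Cre, and 4 WT libraries, with the genotype Villin-Cre alone. Both genotypes therefore carry the Cre transgene, which the Villin promoter drives in the gut epithelium. Rictor belongs to mTOR complex 2, which activates Akt, and the design sets its loss in the epithelium against Cre alone. The labels give no hour of collection, lighting schedule, feeding state, age, sex or gut segment. Nothing in them ties the libraries to different mice, so the spread that every p-value rests on is that between libraries and could be technical in part.

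The clock is a transcriptional feedback loop that runs in nearly every cell, the gut epithelium included. Arntl (also called Bmal1) pairs with Clock and activates genes through E-boxes, among them the Per and Cry genes, Nr1d1, Nr1d2 and Dbp. The Per and Cry proteins inhibit that pair, and Nr1d1 and Nr1d2 (Rev-erb alpha and beta) repress Arntl. Dbp and its relatives Tef and Hlf activate genes through D-boxes. In peripheral tissues of mice Arntl peaks late in the night, in antiphase to Nr1d1 and Dbp, which peak in the day, and Per2 and Cry1 follow later. Insulin and Akt signalling and the kinase GSK3 are known to act on several clock proteins, which RNA counts do not measure.

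Upstream sequences were searched for letters through which the clock genes are known to drive each other. In RefSeq promoter windows on build GRCm38.p6, found for 9 of the 10 genes (all but Per2), the 250 bases before each start were searched on both strands for the E-box CACGTG, the D-box TTATGTAA and the element TAGGTCA, which Nr1d1 and the ROR receptors bind. The E-box was present in 1 of 2 windows of Per1 and in the window of Cry1. The D-box occurred 2 times in the window of Per3, and TAGGTCA was in none. Of all 32851 windows, 6.02% hold the E-box, 0.819% the D-box and 2.23% TAGGTCA. Counted by gene, over 27025 genes, these shares are 6.86%, 0.977% and 2.55%. No match overlapped a match of another motif. The stretches below, 5′ to 3′ on the strand of the gene, show each match in capitals.
Per3, chr4:151044776-151044910, minus strand: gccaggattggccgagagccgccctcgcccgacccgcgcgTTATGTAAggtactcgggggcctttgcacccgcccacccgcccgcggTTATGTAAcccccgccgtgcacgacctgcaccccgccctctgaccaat
Per1, chr11:69098743-69098828, plus strand: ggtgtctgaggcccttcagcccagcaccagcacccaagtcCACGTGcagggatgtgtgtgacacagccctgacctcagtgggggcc
Cry1, chr10:85185069-85185154, minus strand: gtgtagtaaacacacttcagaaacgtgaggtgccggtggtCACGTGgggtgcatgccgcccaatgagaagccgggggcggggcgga
A match is a description of these letters, and no match says only that they are not in the window searched.

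Total counts ran from 15110451 to 18351748 in cKO libraries and from 15982538 to 18708335 in WT libraries. Rictor, the targeted gene, had 30.4, 39.6, 20.8 and 40.6 CPM (counts scaled to a common library total with TMM factors) in cKO libraries 1 to 4, against 41.7, 42.4, 57.3 and 51.4 CPM in WT libraries 1 to 4. All cKO values lay below all WT values, with a log2 fold change of -0.55 ± 0.20 (SE) that did not pass the adjusted threshold (unadjusted p = 0.0189, edgeR adjusted p = 0.921) and was -0.29 without WT 3 and cKO 3. The 6 epithelial markers (Vil1, Epcam, Cdh1, Krt8, Krt20 and Cdx2) were detected in every library and summed to 7129 to 9126 CPM in cKO and 7300 to 8736 CPM in WT. Library cKO 3 stood apart. Over genes, the Spearman correlation between its deviation from the mean of the 8 libraries and transcript GC content was 0.68, against -0.36 to -0.075 in the other 7 libraries. Library WT 3 had the highest summed level of 5 enterocyte markers (Alpi, Apoa4, Fabp2, Sis and Lct), 10301 CPM, against 4373 to 7072 CPM in cKO and 3519.5 to 4739.5 CPM in the other WT libraries.

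None of the 10 clock genes differed between cKO and WT beyond the spread between libraries. By edgeR's quasi-likelihood test 0 of 10 passed an adjusted p of 0.05, where 2 of 14701 genes passed (0.0136%), and 0 of 10 had an unadjusted p under 0.05, where 3.90% of genes did (1.83% higher and 2.07% lower in cKO). DESeq2 also called 0 of the 10, where it called 0.309% of genes. The groups overlapped for every clock gene, whereas they did not overlap for 3.21% of all genes. Point estimates were higher in cKO for 4 genes and lower for 6, where 49.5% of all genes were lower, with a median log2 fold change of -0.015, beside 0.0022 over all genes tested. In bulk tissue, fewer cells of a type and less RNA per cell cannot be told apart.

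**Figure D1:**
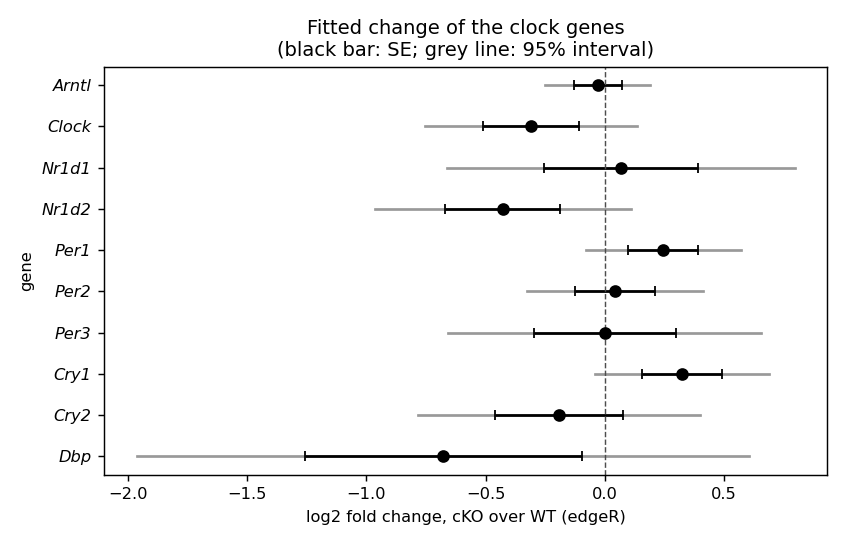
Fitted log2 fold change of each clock gene, cKO over WT, on the x axis and genes down the page; points are edgeR estimates, black bars their SE and grey lines 95% intervals. Every interval spans 0, the narrowest for Arntl (-0.25 to 0.19) and the widest for Dbp (-1.96 to 0.61).

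Of the activators, Arntl (ENSMUSG00000055116, GRCm38 chromosome 7, 113207465 to 113314126) varied least of the 10 genes. It had 60.5, 54.8, 59.0 and 63.4 CPM in cKO libraries 1 to 4, against 60.7, 67.7, 55.6 and 58.8 CPM in WT libraries 1 to 4. The 2 genotypes covered nearly the same narrow range, and the highest library exceeded the lowest 1.23-fold. Arntl in cKO stood at 97.9% of WT (95% interval 84.0 to 114; edgeR adjusted p = 0.969). Clock (ENSMUSG00000029238, chromosome 5, 76209868 to 76304792), the partner of Arntl, had 112, 113, 57.4 and 122 CPM in cKO libraries 1 to 4, against 116, 129, 138 and 118 CPM in WT libraries 1 to 4. The one low value was in cKO 3, while cKO 4 lay inside the WT range and cKO 1 and cKO 2 just below it. Its log2 fold change of -0.31 ± 0.20 (SE; edgeR adjusted p = 0.921) was -0.11 without cKO 3 and -0.15 with the trend on transcript length and GC content removed from each library. The longest Clock transcript has a GC content of 40.9%, the lowest among the 10 genes.

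**Figure D2:**
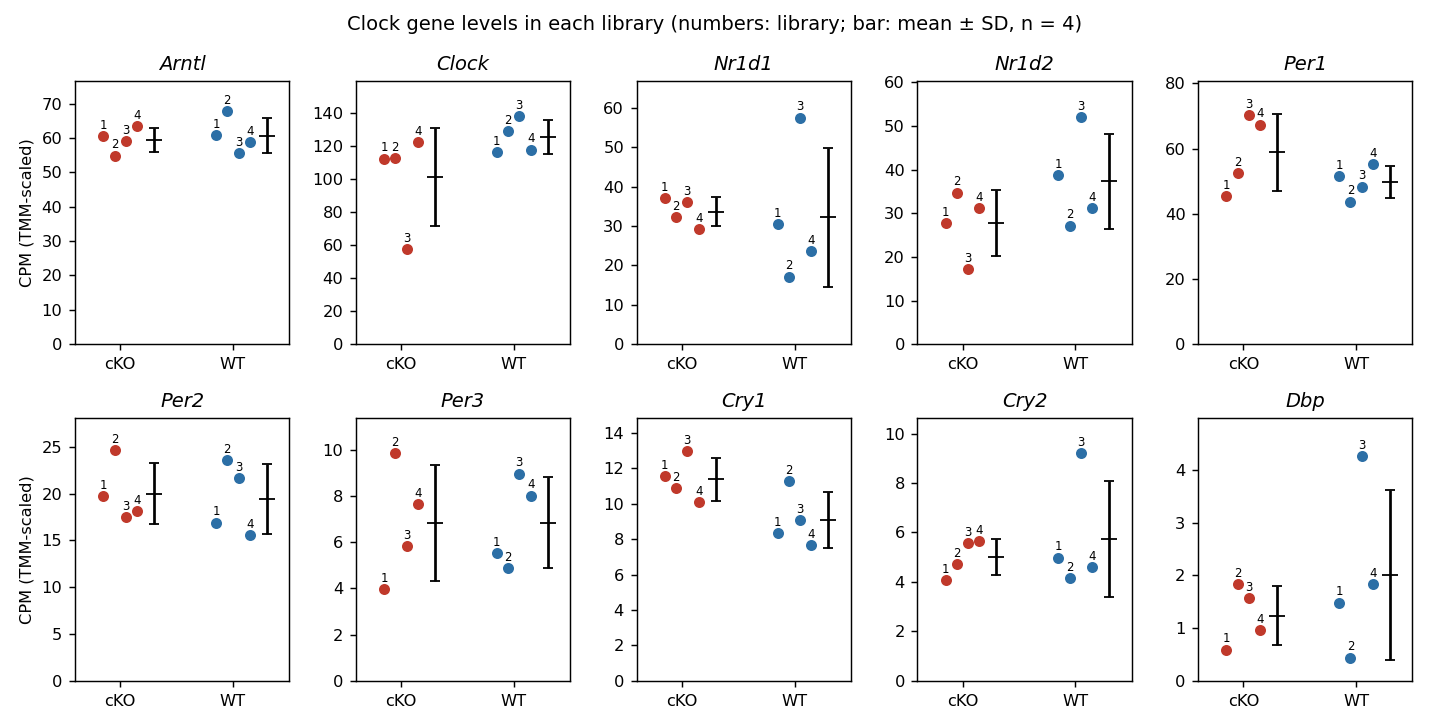
Level of each clock gene in CPM (y axes, from 0) in the 4 cKO and 4 WT libraries (x axes); each point is a library with its number, and the black bar is the mean ± SD (n = 4). The groups overlap in all 10 panels; WT 3 is highest for Clock, Nr1d1, Nr1d2, Cry2 and Dbp, and cKO 3 is lowest for Clock and Nr1d2.

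The repressors Nr1d1 and Nr1d2 are direct targets of the activators and in turn repress Arntl. Nr1d1 (ENSMUSG00000020889, chromosome 11, 98767932 to 98775333) had 37.1, 32.2, 36.1 and 29.2 CPM in cKO libraries 1 to 4, against 30.4, 17.1, 57.5 and 23.7 CPM in WT libraries 1 to 4. The WT libraries held both the highest and the lowest value, with a mean of 33.6 ± 3.63 CPM in cKO and 32.2 ± 17.7 CPM in WT (SD, n = 4 each). Its log2 fold change of 0.07 ± 0.32 (SE; edgeR adjusted p = 0.975) was 0.50 without WT 3 and -0.14 without WT 2. Nr1d1 shares 263 exonic bases with Thra on the opposite strand, and the treatment of strand in counting is not given in the sources used here. Thra averaged 123 ± 17.3 CPM in cKO and 120 ± 9.43 CPM in WT (SD, n = 4 each). Nr1d2 (ENSMUSG00000021775, chromosome 14, 18204054 to 18239127) had 27.7, 34.7, 17.2 and 31.2 CPM in cKO libraries 1 to 4, against 38.7, 27.2, 52.1 and 31.2 CPM in WT libraries 1 to 4. Its lowest value was again in cKO 3 and its highest in WT 3. Its log2 fold change of -0.43 ± 0.24 (SE; edgeR adjusted p = 0.921) shrank to -0.053 without those 2 libraries.

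The Per genes encode the period proteins, which inhibit the activators, and Per1 is also induced rapidly by glucocorticoid and cAMP signals. Per1 (ENSMUSG00000020893, chromosome 11, 69095217 to 69109960) had 45.5, 52.4, 70.2 and 67.3 CPM in cKO libraries 1 to 4, against 51.5, 43.7, 48.3 and 55.3 CPM in WT libraries 1 to 4. Libraries cKO 3 and cKO 4 lay above the WT range, while cKO 1 and cKO 2 lay inside it. Per1 in cKO stood at 118% of WT (95% interval 94.5 to 148; edgeR adjusted p = 0.921). Its log2 fold change of 0.24 was 0.15 without cKO 3 and 0.10 with the length and GC trend removed. Per2 (ENSMUSG00000055866, chromosome 1, 91415982 to 91459324) had 19.7, 24.6, 17.5 and 18.1 CPM in cKO libraries 1 to 4, against 16.9, 23.5, 21.6 and 15.6 CPM in WT libraries 1 to 4. The ranges nearly coincided, with the highest value in cKO 2 and the lowest in WT 4. Per2 in cKO stood at 103% of WT (95% interval 79.7 to 133; edgeR adjusted p = 0.972). Per3 (ENSMUSG00000028957, chromosome 4, 151003652 to 151044665), whose upstream D-boxes are shown above, had 3.97, 9.87, 5.84 and 7.64 CPM in cKO libraries 1 to 4, against 5.51, 4.86, 8.96 and 8.01 CPM in WT libraries 1 to 4. Its extremes, 2.49-fold apart, were both cKO libraries. The group means were 6.83 ± 2.52 CPM in cKO and 6.84 ± 1.96 CPM in WT (SD, n = 4 each), with a 95% interval of 63.4% to 158% of WT.

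The cryptochromes Cry1 and Cry2 are the other inhibitors of the loop. Cry1 (ENSMUSG00000020038, chromosome 10, 85131700 to 85185064) had 11.6, 10.9, 13.0 and 10.1 CPM in cKO libraries 1 to 4, against 8.32, 11.3, 9.08 and 7.64 CPM in WT libraries 1 to 4. Of the WT libraries 1, WT 2, reached the cKO range. The log2 fold change of 0.32 ± 0.17 (SE) had the smallest unadjusted p of the 10 genes, 0.0776 (edgeR adjusted p = 0.921), and ran from 0.25 to 0.445 when 1 library was left out. Cry1 in cKO stood at 125% of WT (95% interval 97.1 to 161), and with sample quality weights in limma voom the log2 fold change was 0.20. Cry2 (ENSMUSG00000068742, chromosome 2, 92403646 to 92434043) had 4.09, 4.73, 5.56 and 5.65 CPM in cKO libraries 1 to 4, against 4.98, 4.14, 9.21 and 4.59 CPM in WT libraries 1 to 4. Only WT 3 stood away from the others, and the log2 fold change of -0.19 ± 0.27 (SE; edgeR adjusted p = 0.927) was 0.13 without it. Cry2 shares 295 exonic bases with the antisense-strand transcript D930015M05Rik, which averaged 0.179 ± 0.12 CPM in cKO and 0.143 ± 0.148 CPM in WT (SD, n = 4 each).

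Dbp, the output factor of the loop (ENSMUSG00000059824, chromosome 7, 45705088 to 45710203), was the least abundant and the most variable of the 10. It had 0.592, 1.83, 1.57 and 0.963 CPM in cKO libraries 1 to 4, against 1.49, 0.442, 4.26 and 1.83 CPM in WT libraries 1 to 4. WT 3 was highest and WT 2 lowest, 9.64-fold apart, and the cKO libraries lay between them. These values rest on 69 counts in WT 3 (exact Poisson 95% interval 3.32 to 5.40 CPM) and 8 counts in WT 2 (0.191 to 0.871 CPM), so those 2 libraries differed by more than counting error, which is all these intervals cover. Its log2 fold change of -0.68 ± 0.58 (SE; edgeR adjusted p = 0.921) shrank to -0.0073 without WT 3. Dbp shares 539 exonic bases with Sphk2 on the opposite strand, which averaged 78.8 ± 12.5 CPM in cKO and 78.3 ± 9.99 CPM in WT (SD, n = 4 each). The part of Sphk2 reads in the Dbp counts was not tested.

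Levels were ordered between genes in the deposited FPKM, which divide by gene length and library total. That gene length exceeds the longest transcript by unequal amounts. It is 7523 against 3995 bases for Arntl, 13727 against 9744 for Clock and 3077 against 2721 for Nr1d1. The order of genes of close level, and ratios between genes, depend on the length used. Averaged over the 8 libraries, Nr1d1 was at 10.6 FPKM, Per1 at 9.53, Clock at 8.16, Arntl at 7.90, Nr1d2 at 5.94, Per2 at 3.33, Cry1 at 3.03, Cry2 at 0.840, Per3 at 0.703 and Dbp at 0.536. Among neighbours in this order the ranges over libraries were separate only between Cry1, at 2.26 FPKM or more, and Cry2, at 1.44 FPKM or less. All libraries kept nearly the same order. Over the 10 genes, the Spearman correlation of FPKM between 2 libraries had a median of 0.93 and a range of 0.79 to 0.99 over the 28 pairs, a description across genes with no test. Dbp was the lowest of the 10 in 7 of 8 libraries, the exception being WT 3. Arntl exceeded Dbp in every library, 40.7-, 11.9-, 14.9- and 26.2-fold in cKO libraries 1 to 4, against 16.3-, 60.9-, 5.19- and 12.7-fold in WT libraries 1 to 4. The smallest and the largest ratio were both in WT libraries.

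**Figure D3:**
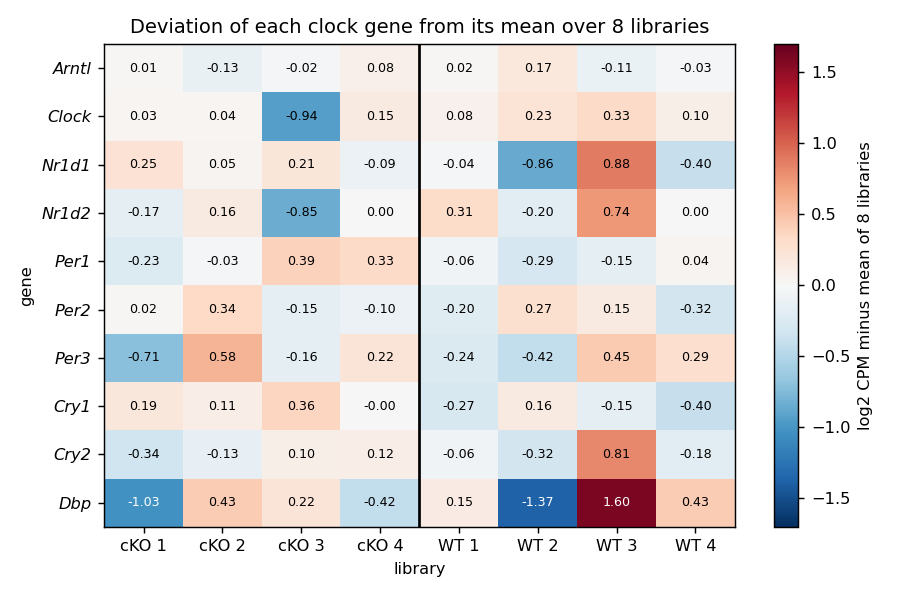
Deviation of each clock gene (rows) in each library (columns, cKO left of WT) from its mean over the 8 libraries, in log2 CPM, printed in each cell and coloured red above and blue below the mean. WT 2 and WT 3 are opposite for Dbp (-1.37 and 1.60) and Nr1d1 (-0.86 and 0.88), and cKO 3 is low for Clock (-0.94) and Nr1d2 (-0.85).

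Agreement of phase was examined next from how the libraries deviated from that shared order. The deviations did not sort by genotype. Over the 10 genes, the correlation of 2 libraries' deviations had a median of -0.12 within cKO (6 pairs, 1 positive), 0.053 within WT (6 pairs, 3 positive) and -0.21 between cKO and WT (16 pairs, 4 positive). Deviations from a common mean sum to 0 over libraries, which by itself makes such correlations negative on average. The most alike pair was cKO 1 with WT 2 (r = 0.64) and the least alike cKO 1 with WT 4 (r = -0.85). Within WT, libraries 2 and 3 were the most opposed (r = -0.83). The difference of Dbp and Arntl on the log2 CPM scale, a contrast of output and activator, was -6.42, -4.82, -5.13 and -5.88 in cKO libraries 1 to 4, against -5.25, -6.92, -3.67 and -4.92 in WT libraries 1 to 4. The mean was -5.56 ± 0.72 in cKO and -5.19 ± 1.34 in WT (SD, n = 4 each). The difference of -0.37 was -0.95 without WT 2 and 0.13 without WT 3, so its direction rests on 1 library. WT libraries held both ends of that contrast. Arntl deviated from its mean by only -0.129 to 0.175 and Dbp by -1.37 to 1.60. The contrast therefore mostly restates the values of Dbp, which rest on 8 to 69 counts per library.

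Pairs of genes that peak at opposite or like times were followed over the 8 libraries, in 5 pairs with an exact two-sided permutation test and Benjamini-Hochberg adjustment over the 5. Arntl and Dbp ran in opposite directions, with Pearson's r = -0.83 (exact p = 0.0134, adjusted 0.0672) and Spearman's rho = -0.86 (exact p = 0.0107, adjusted 0.0385). Without WT 2 and cKO 2, the libraries farthest from the Arntl median, r was -0.83 (exact p = 0.0611, n = 6). With values centred on the mean of each genotype it was -0.90. Only the rank correlation passed the adjusted threshold with all libraries pooled. The Arntl values behind it span a narrow range, as given above.

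Nr1d1 fell short of the threshold against both genes. Arntl with Nr1d1 gave r = -0.72 (exact p = 0.0473, adjusted 0.0757) and rho = -0.55 (exact p = 0.171, adjusted 0.285), and r was -0.64 (exact p = 0.151, n = 6) without WT 2 and cKO 2. Without WT 2 alone that r was -0.445 (exact p = 0.315, n = 7). Nr1d1 with Dbp gave r = 0.68 (exact p = 0.0606, adjusted 0.0757) and rho = 0.38 (exact p = 0.36, adjusted 0.45). Without WT 3 and WT 2 that r was -0.48 (exact p = 0.335, n = 6), so it rests on those 2 libraries. Dbp with Per3 gave r = 0.75 (exact p = 0.0304, adjusted 0.0757) and rho = 0.83 (exact p = 0.0154, adjusted 0.0385). Without WT 2 and WT 3 that r was 0.70 (exact p = 0.117, n = 6). Arntl with Clock gave r = 0.12 (exact p = 0.704, adjusted 0.704) and rho = 0.19 (exact p = 0.665, adjusted 0.665), with r = -0.042 (exact p = 0.912, n = 6) without WT 2 and cKO 2.

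**Figure D4:**
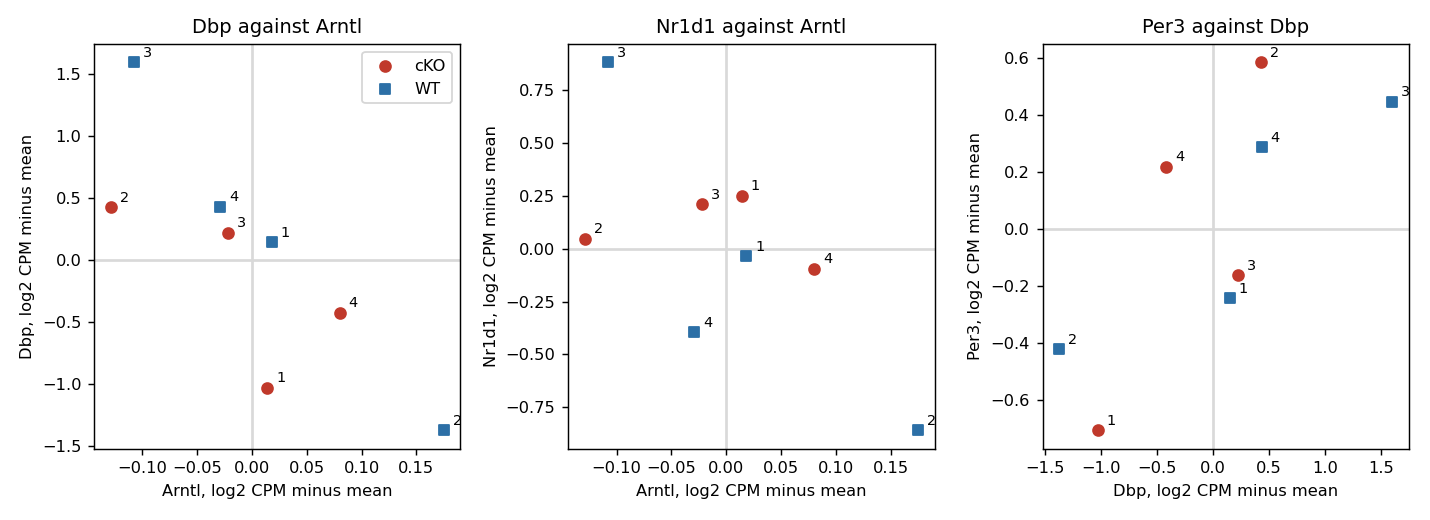
Deviations in log2 CPM from the mean over 8 libraries for Dbp against Arntl (left), Nr1d1 against Arntl (middle) and Per3 against Dbp (right); red circles are cKO and blue squares WT libraries, numbered. Pooled over the 8 libraries r is -0.83, -0.72 and 0.75, and WT 2 and WT 3 lie near the ends of each panel; slopes within a genotype were not compared.

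Several clock genes varied more between libraries of a genotype than most genes of like level. The SD within genotype, on the log2 CPM scale, had a median of 0.38 over the 10 genes and 0.25 over all 14701. Nr1d1 had 0.53, larger than in 96.6% of genes within 1 log2 unit of its mean level. Dbp, at 0.98, stood above 95.2% of its neighbours in level, Clock, at 0.37, above 94.3%, and Nr1d2, at 0.42, above 93.9%. Per3 stood above 82.3%, Per1 above 69.7%, Per2 and Cry2 above 64.5% each, Cry1 above 28.1% and Arntl, at 0.10, above 12.3%. The high places of Clock and Nr1d2 include the low value of cKO 3, and those of Nr1d1 and Dbp the values of WT 2 and WT 3. With cKO 3 set aside, Clock ran only from 112 to 138 CPM. Rictor, which is not a clock gene, stood above 90.0% of genes within 1 log2 unit of its mean level.

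**Figure D5:**
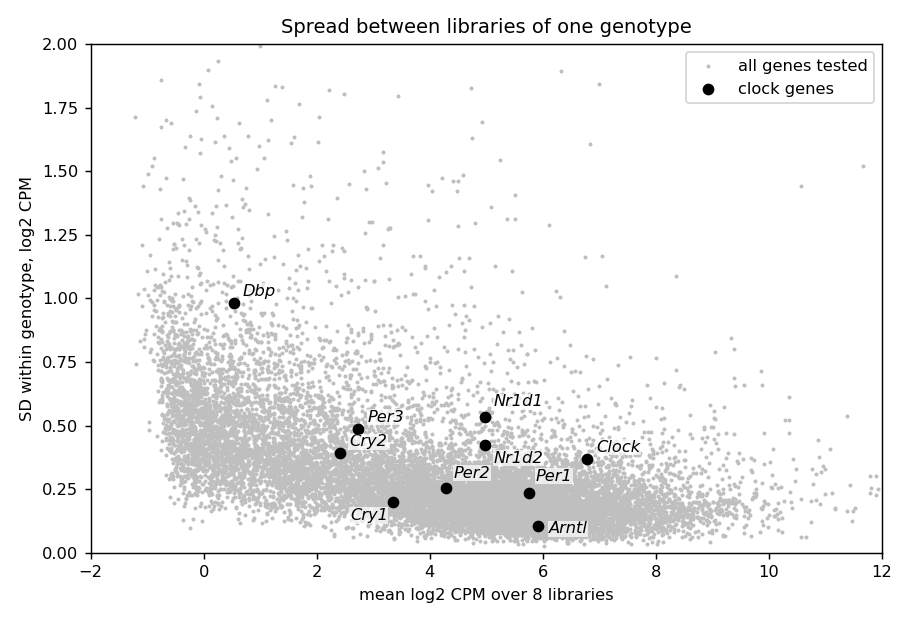
SD within genotype of log2 CPM (y axis) against mean log2 CPM over 8 libraries (x axis), grey for all 14701 genes tested (30 lie outside the axes) and black for the clock genes. Nr1d1 (0.53), Nr1d2 (0.42), Clock (0.37) and Dbp (0.98) lie in the upper edge of the grey cloud at their level, and Arntl (0.10) in its lower edge.

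The wider clock list of 22 genes holds partners, kinases, ubiquitin ligases and outputs of the loop. All were in the tables and 19 were tested: Rorb was at 0 counts in every library, and Ciart and Bhlhe41 fell below the filter. Of the 19, 0 passed the adjusted threshold of edgeR in either direction and 0 had an unadjusted p under 0.05, with 8 higher and 11 lower point estimates and a median log2 fold change of -0.0084. The groups did not overlap for 2 of them, Hlf and Gsk3b, both lower in cKO, where 1.80% of all genes did not overlap in that direction and 1.41% in the other. Gsk3b, a kinase that phosphorylates clock proteins and is itself inhibited by Akt, was at 104 ± 7.28 CPM in cKO and 116 ± 5.14 CPM in WT (SD, n = 4 each; log2 fold change -0.16 ± 0.10 SE, edgeR adjusted p = 0.921). That fold change was -0.066 with the length and GC trend removed and -0.093 without WT 3 and cKO 3. Hlf, a D-box factor, was at 1.79 ± 0.259 CPM in cKO and 2.36 ± 0.285 CPM in WT (log2 fold change -0.40 ± 0.24 SE, edgeR adjusted p = 0.921). Nfil3, which competes with Dbp for D-boxes, had a log2 fold change of 0.36 ± 0.23, which was 0.19 without cKO 3 and 0.064 without both WT 3 and cKO 3. Usp2, a rhythmic deubiquitinase, had -0.15 ± 0.11, which was -0.24 with the length and GC trend removed and -0.098 without cKO 2. Npas2, the stand-in for Clock, was at 32.1 ± 1.48 CPM in cKO and 31.3 ± 4.33 CPM in WT.

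Tef, the third D-box factor, followed Dbp over the libraries. It had 12.5, 15.3, 15.8 and 11.8 CPM in cKO libraries 1 to 4, against 12.7, 7.57, 26.5 and 16.6 CPM in WT libraries 1 to 4. As for Dbp and Nr1d1, WT 3 was highest and WT 2 lowest. Likeness was measured as Pearson's r over the 8 libraries of log2 CPM centred on the mean of each genotype, as a description with no test. The ranking covered 9977 genes with a mean of at least 5 CPM and without predicted or clone names. Dbp itself lies below that level. By it Tef was the fifth from the top for Dbp (r = 0.95, above 99.9% of genes) and the fifth from the bottom for Arntl (r = -0.89). The 4 genes more like Dbp were Tuba1a (r = 0.97), Smad2 (0.95), Tmem86a (0.95) and Rnf167 (0.95), and the 5 least like it were Hsd17b12 (-0.98), Asnsd1 (-0.95), Ntpcr (-0.95), Fbxw7 (-0.95) and Fry (-0.94). For Arntl the most alike were Lnx2 (r = 0.93), Zfp518b (0.91), Mgst1 (0.89), Lypd8 (0.88) and Dnajc10 (0.88), and the 4 below Tef were Gkap1 (-0.94), Flcn (-0.90), Cdk5rap1 (-0.90) and Tacc1 (-0.90). With values pooled over genotypes, 3 of the 5 most alike genes were shared for each of Arntl and Dbp, and of the 5 least alike 3 were shared for Arntl and 2 for Dbp. Among the clock genes, Cry2 (r = 0.78), Nr1d1 (0.77) and Per3 (0.77) were above 98.4% or more of genes in likeness to Dbp, while Per2 (-0.085) and Clock (-0.15) were not near either end. Without WT 2 and WT 3, and uncentred, r with Dbp was -0.483 for Nr1d1 and 0.705 for Per3. Cry2 stood away from its other values only in WT 3.

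Other measures moved with the library that sets the top of these patterns. WT 3 had the highest sum of the enterocyte markers, as given above, and of the 6 transporters known to be rhythmic in gut (Slc5a1, Slc2a2, Slc2a5, Slc15a1, Slc9a3 and Abcb1a), at 3302 CPM, against 1581 to 3106 CPM in cKO and 1541 to 1844 CPM in the other WT libraries. The share of counts from mitochondrial genes was 7.71% in WT 3 and 5.28% in WT 2, the highest and the lowest of the 8 libraries, against 5.96% to 6.24% in cKO and 5.39% and 6.96% in WT 1 and WT 4. Its part in the clock gene values was not tested. Slc15a1, the peptide transporter, which lies outside the naming rule given below, had 257 CPM in WT 3. It ran from 104 to 160 CPM in cKO and from 72.6 to 81.0 CPM in the other WT libraries. Slc5a1, Slc2a2, Slc2a5 and Abcb1a were also highest in WT 3, where Slc5a1 alone reached 2068 CPM. Slc9a3 was not, as its 323 CPM there lay below cKO 1 (563 CPM), cKO 3 (456 CPM) and WT 2 (330 CPM). Among the enterocyte markers, Alpi peaked in cKO 1 (682 CPM, with 586 CPM for WT 3), and the others peaked in WT 3. All 5 enterocyte markers and all 6 transporters were detected in every library. Library WT 2, lowest for Dbp, Nr1d1 and Tef, had an enterocyte sum of 4739.5 CPM, above WT 1 (3519.5 CPM) and WT 4 (4484 CPM). The part of cell makeup in the clock gene values was not tested. Of the 6 transporters 0 passed in cKO against WT, with 4 higher and 2 lower point estimates. Slc9a3 had a log2 fold change of 0.41 ± 0.40 (SE), which was 0.094 without cKO 1, and Abcb1a had -0.39 ± 0.33, which was 0.060 without WT 3.

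Markers of other cells were low apart from lymphocytes. The 7 T cell and intraepithelial lymphocyte markers summed to 419, 176, 449 and 188 CPM in cKO libraries 1 to 4, against 159, 142, 257 and 436 CPM in WT libraries 1 to 4. Among WT libraries, WT 2 was lowest for this sum and for Dbp, while WT 4 was highest for the sum and WT 3 for Dbp. The part of lymphocytes in the Dbp values was not tested. Sums of the 4 fibroblast markers were 1.18 to 1.54 CPM in cKO and 0.318 to 0.884 CPM in WT, those of the 3 smooth muscle markers 0.321 to 0.506 CPM in cKO and 0 to 0.221 CPM in WT, and those of the 3 macrophage markers 2.82 to 4.56 CPM in cKO and 1.65 to 2.55 CPM in WT. These 3 low sums were higher in every cKO library than in any WT library, as were 1.41% of all single genes tested. Their members differed. Cd68 overlapped, at 1.63 CPM in cKO 3 and 2.23 CPM in WT 1, while Acta2 was highest in WT 3 (0.185 CPM) and Des in WT 2 (0.221 CPM). The sums rest on few counts, with 4 or 5 for Myh11 in each cKO library. Their part in the clock gene values was not tested. B cell markers ran from 1.93 to 7.44 CPM in cKO and from 3.08 to 10.3 CPM in WT, and endothelial, neuron and glia, and erythroid lists stayed at or under 2.25 CPM in every library. No marker on these lists was at 0 in every library.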

How the data were processed

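The authors deposited raw whole-number counts per gene and FPKM for the same genes, made with Hisat2 and Stringtie per the labels' design text; the deposited FPKM are per kilobase of gene length and per library total. For versions, build, counting program and strand setting, no source used here gives a value. Of 53620 identifiers shared with GENCODE M21 (GRCm38), 97.1% had identical coordinates. Counts were tested with edgeR 4.0.16 in R 4.3.3 (robust quasi-likelihood F-test, TMM, default filter, genotype as the single term, Benjamini-Hochberg over 14701 genes, threshold 0.05). SE is the log2 fold change over the square root of F (median 0.173). Log2 CPM used a prior count of 2. DESeq2 1.42.0, limma 3.58.1 and the other alternatives are given in the closing section. The fit was tested on simulated data. It called 8.96% of 1.5-fold, 58.2% of 2-fold and 95.5% of 4-fold changes there at the same threshold. That no clock gene was called therefore does not exclude changes of 1.5- to 2-fold. No 2 libraries agreed within sampling noise (lowest chi-square per degree of freedom 9.84). Counts limit the precision, and Poisson intervals cover counting error only. The clock genes, lists and tests were chosen with earlier results of these data known. The naming rule covers all 10 clock genes, at least 4 genes of the wider list and 2 of each other list by smallest p, and 5 genes at each end of likeness. It also covers the called genes Popdc3 and Ces1f, which are not clock genes. A further listed enterocyte marker is not reported here.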

Additional observations from a re-analysis of the deposited data

Results flagged for a closer look

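In 4 of 42 groups of 4 libraries (21 genes in 2 genotypes), a single library was separated from the remaining 3 by most of the spread of its group. Chance gives about 1 in 20 such groups. Clock was low in cKO 3, with a gap of 0.848 of the range. Cry2 was high in WT 3, with a gap of 0.834 of the range, as were Hlf, with a gap of 0.854, and the immediate early gene Junb, with a gap of 0.864. Junb was at 84.8, 65.5, 71.1 and 54.2 CPM in cKO libraries 1 to 4, against 46.9, 49.4, 71.1 and 45.9 CPM in WT libraries 1 to 4. What sets these libraries apart was not tested.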

How the results depend on the processing

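In all 20 alternatives 0 clock genes were called, and the adjusted p of any clock gene was 0.619 or more. Clock, Per1, Cry1 and Nr1d2 kept their direction in all 20. The number of genes called among all tested, 2, was 10 without a filter, 4 without WT 3 and cKO 3, 41 by DESeq2, 8 by limma voom with sample quality weights, 0 by limma on log2(FPKM + 0.1) or log2(FPKM + 1) with a mean FPKM minimum of 0.5, and 0 to 3 without 1 library. With the replicate number as a block it was 0. Same-numbered libraries correlated at -0.11 to 0.15 in their deviations, against -0.195 to 0.148 for libraries of different number, which does not decide pairing. The numbers were not taken as pairs because the labels do not say that they pair libraries. The block called no clock gene. Leaving out 1 library gave log2 fold changes of 0.15 to 0.35 for Per1, -0.070 to 0.026 for Arntl, -0.067 to 0.15 for Per2, -0.22 to 0.19 for Per3, -0.32 to 0.13 for Cry2, -0.14 to 0.50 for Nr1d1 and -1.01 to -0.0073 for Dbp, and -0.56 to 0.060 for Abcb1a. Directions also turned with the length and GC trend removed, an alternative added after seeing the data (Per2 -0.024, Nr1d1 -0.057), with upper-quartile factors (Per3 0.017), without WT 3 and cKO 3 (Per3 0.22, Cry2 0.075, Abcb1a 0.17) and with sample quality weights (Per3 0.37, Cry2 0.090, Dbp 0.15, Abcb1a 0.091, Slc9a3 -0.11). The cause was not tested. For Arntl with Dbp, r was -0.899 with values centred on genotype (permutation test, adjusted 0.0166). That test shuffled the centred values freely across genotypes, so its p is not exact and can be too small. With uncentred values r ran from -0.898 to -0.72 without 1 library, passing the adjusted threshold (exact permutation test) without cKO 1. Arntl with Nr1d1 ran from -0.827 to -0.445, and the difference between genotypes in Dbp minus Arntl from -0.95 to 0.13 log2 CPM. Arntl with Clock ran from -0.078 to 0.32 without 1 library and was -0.042 without the 2 farthest libraries, where Nr1d1 with Dbp was -0.483. Low counts of Dbp limit all its values.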

Other observations

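Genes that respond to glucocorticoids, hormones whose blood level follows the day, were listed beside Per1. Of 6 genes (Fkbp5, Tsc22d3, Zbtb16, Klf9, Dusp1 and Sgk1) 0 passed in cKO against WT by edgeR and 0 had an unadjusted p under 0.05, with 2 higher and 4 lower point estimates. Tsc22d3 had a log2 fold change of 0.19 ± 0.13 (SE) and Klf9 of -0.20 ± 0.17, both with an edgeR adjusted p of 0.921. That of Klf9 was -0.095 without cKO 3 and -0.39 without cKO 4. Fkbp5, named after its values were seen, had 84.1, 118, 45.9 and 82.1 CPM in cKO libraries 1 to 4, against 139, 118, 36.0 and 97.0 CPM in WT libraries 1 to 4. It was lowest in WT 3 and cKO 3, and Zbtb16, likewise named after its values were seen, was lowest in the same libraries at 0.247 and 0.730 CPM, against 1.28 to 7.50 CPM in the other 6. The rest of the list did not share this pattern. Sgk1 was highest in WT 3 (153 CPM) and lowest in cKO 3 (53.3 CPM), and Tsc22d3 was highest in cKO 3 (124 CPM). Klf9 was lowest in cKO 3 (30.7 CPM) but had 46.5 CPM in WT 3, and Dusp1 was lowest in WT 4 (2.51 CPM).

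Of 7 immediate early genes, which respond to stimuli within minutes, 0 passed the adjusted threshold of edgeR and 1 had an unadjusted p under 0.05, where 3.90% of all genes did. This was Ier2, at 102 ± 14.5 CPM in cKO and 81.3 ± 6.78 CPM in WT (SD, n = 4 each; log2 fold change 0.33 ± 0.12 SE, edgeR adjusted p = 0.921). Junb had 0.37 ± 0.17 (SE). With the length and GC trend removed these fold changes were 0.18 for Ier2 and 0.20 for Junb. Egr1, named after its values were seen, had 13.1, 50.5, 11.4 and 10.9 CPM in cKO libraries 1 to 4, against 15.5, 16.9, 19.0 and 16.6 CPM in WT libraries 1 to 4. Library cKO 2 also had the highest Per2 and Per3, while Per1 was at 52.4 CPM there and highest in cKO 3 (70.2 CPM). A link between these values was not tested.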
